A study of Arabidopsis thaliana with 6 samples.

Results

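The genes described here are 85 Arabidopsis thaliana genes whose transcripts were at least 2-fold higher in the lsm1a lsm1b library than in the Col-0 library after cold, and at most 0.5-fold as high in the library labelled lsm1a lsm1b as in Col-0 after NaCl. They were chosen by these ratios, computed as (CPM + 0.5) in lsm1a lsm1b over (CPM + 0.5) in Col-0, where CPM is the count of a gene divided by the total of its library and multiplied by 1000000. The level in whichever library was higher had to reach 5 CPM in both stresses. Of 13995 genes past that level in cold and NaCl, 97 met both ratio limits, and 12 of them belong to a set of 14 genes that the rule leaves out. The 85 genes left are the members, out of 20297 genes listed in any stress.

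Each of 6 groups had 1 library of RNA from material labelled as leaves of 2-week-old plants. The lsm1a lsm1b double mutant and the wild-type accession Col-0 were each sampled after 24 h at 4 °C on soil, after 10 h on plates with 55% polyethylene glycol (PEG), which withdraws water, and after 10 h on plates with 150 mM NaCl. Both genotypes were grown in long days, the light was dimmer during the cold treatment, and the sources used here name neither the alleles of the double mutant nor the number of plants per library. With 1 library per genotype and stress no difference has a replicate check, so no p-value is given. The intervals below are exact binomial (Clopper-Pearson) 95% intervals of the 2 counts, without the 0.5 CPM, and cover counting error only.

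LSM1A and LSM1B are alternative forms of a subunit that the cytoplasmic LSM1-7 ring needs. The ring binds messenger RNAs whose poly(A) tail has been shortened and promotes removal of the cap, after which the RNA is degraded from its 5′ end. Transcripts with short lives depend most on such decay, and among them are early-response genes, which plants switch on briefly after touch, wounding, microbial molecules or a sudden change in water or temperature. Their products include transcription factors, ubiquitin ligases, calcium-binding proteins and cell-surface kinases. Genes of each of these kinds are among the members, in groups made after the members were seen. Transcript decay was not measured here, and whether it plays a part in the ratios was not tested.

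The libraries were checked first. Total counts ranged from 10289392 to 22639128. LSM1A, with 10 to 26 counts in lsm1a lsm1b and 206 to 273 in Col-0, was 6.43-fold to 13.6-fold lower by the ratio above. LSM1B had 39 counts in lsm1a lsm1b and 152 in Col-0 after cold, and 98 and 207 after PEG, but 439 counts (19.4 CPM) in the NaCl library labelled lsm1a lsm1b against 9.66 CPM in Col-0, which goes against that label. LSM1A had 12 counts in that same library and 273 in Col-0 after NaCl, which goes with the label. In all that follows, lsm1a lsm1b after NaCl means the library labelled so, and every direction in NaCl rests on that label. The 6 leaf markers were listed in all 6 libraries, from 75.6 CPM for LHCB3 in Col-0 after PEG to 12009 CPM for RBCS1A in Col-0 after cold. LHCB3 was 2-fold lower in lsm1a lsm1b in cold (log2 ratio -1.03), RBCS2B was 2-fold higher in PEG (1.06), and no leaf marker was 2-fold apart in NaCl. The plate libraries also held root and seed transcripts. The summed level of 5 listed root markers was 1464 to 1872 CPM on plates and 97.1 to 138 CPM in cold, nearly all of it from PYK10, while CASP1, CASP2, MYB36 and IRT1 stood at 1.71 to 24.6 CPM on plates and SMB was not listed. At least 2-fold higher were 1 of 5 root markers in PEG and 2 of 5 in NaCl. The 9 seed markers were not listed in cold and summed to 1165 CPM in lsm1a lsm1b and 611 CPM in Col-0 after PEG (4 of 9 higher and 4 lower by 2-fold), and to 742 CPM in lsm1a lsm1b and 49.1 CPM in Col-0 after NaCl, where 7 of 7 tested markers were at least 2-fold higher. Of 5 flower markers only SEP3 was listed, at no more than 1.94 CPM. Guard cell markers differed by at least 2-fold in 2 of 5 tested genes in cold (both lower) and in 1 of 5 in NaCl (MYB60, higher). Whether tissue make-up plays a part in the ratios of the members was not tested. In whole tissue, fewer cells of a type and less RNA per cell cannot be told apart.

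In cold, 1325 of 14867 tested genes were at least 2-fold higher (8.91%), and in NaCl 680 of 15906 were at least 2-fold lower (4.28%). Both at once held for 97 of 13995 genes (0.693%), which is 7.32% of the cold list and 14.3% of the NaCl list. The opposite pair, lower in cold and higher in NaCl, held for 12 genes (0.0857%). These shares describe how the members were found and support nothing about them.

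Sequences upstream of 4 members are shown because their motifs are those counted further down, and they were chosen after their values were seen. They are the 300 bases before the annotated start in RefSeq (TAIR10.1), 5′ to 3′ on the gene's strand. Capitals mark the W box core TTGAC, a motif bound by WRKY factors, and the rapid stress response element CGCGTT, a motif bound by CAMTA factors, on either strand (GTCAA and AACGCG are their reverse complements). Matches describe letters only.
CMPG1, chr1:24636896-24637195, plus strand: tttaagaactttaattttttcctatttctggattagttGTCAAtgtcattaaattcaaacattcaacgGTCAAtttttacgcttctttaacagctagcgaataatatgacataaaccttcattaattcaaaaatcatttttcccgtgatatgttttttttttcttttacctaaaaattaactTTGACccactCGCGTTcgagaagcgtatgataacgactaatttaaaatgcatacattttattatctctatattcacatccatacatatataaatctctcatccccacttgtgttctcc
DIC2, chr4:12686159-12686458, plus strand: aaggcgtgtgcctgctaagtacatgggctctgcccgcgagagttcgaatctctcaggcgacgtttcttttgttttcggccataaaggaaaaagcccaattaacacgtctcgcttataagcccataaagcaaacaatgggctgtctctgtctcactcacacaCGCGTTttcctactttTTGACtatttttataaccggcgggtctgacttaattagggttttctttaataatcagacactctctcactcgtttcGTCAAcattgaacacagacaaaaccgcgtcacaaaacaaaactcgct
NDR1, chr3:7194471-7194770, plus strand: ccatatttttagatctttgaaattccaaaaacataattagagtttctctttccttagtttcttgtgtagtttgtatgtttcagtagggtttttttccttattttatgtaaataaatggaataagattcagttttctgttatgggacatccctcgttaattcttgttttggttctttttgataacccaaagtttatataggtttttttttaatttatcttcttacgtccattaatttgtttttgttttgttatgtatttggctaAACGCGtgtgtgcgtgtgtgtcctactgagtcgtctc
NHL3, chr5:1931783-1932082, minus strand: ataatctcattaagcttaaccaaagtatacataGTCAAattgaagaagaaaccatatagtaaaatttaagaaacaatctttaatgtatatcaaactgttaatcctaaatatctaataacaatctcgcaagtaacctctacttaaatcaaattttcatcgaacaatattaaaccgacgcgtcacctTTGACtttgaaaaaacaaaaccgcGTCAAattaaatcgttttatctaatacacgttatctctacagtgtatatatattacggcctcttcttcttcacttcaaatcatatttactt
CMPG1 has 3 W box cores and 1 rapid stress response element, which begins 108 bases before the start. DIC2 has 2 cores and 1 element that begins 139 bases before the start, and its window overlaps the annotated gene AT4G24565. NDR1 has the element 37 bases before the start and no W box core. NHL3 has 3 cores and no element.

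Across the members, the log2 ratio of lsm1a lsm1b over Col-0 ran from 1.03 to 4.35 in cold (median 1.85) and from -3.49 up to the limit of the rule in NaCl (median -1.50). Together the members made up 0.625% of all counts in lsm1a lsm1b and 0.165% in Col-0 after cold, 0.193% in lsm1a lsm1b and 0.249% in Col-0 after PEG, and 0.200% in lsm1a lsm1b and 0.594% in Col-0 after NaCl. The Col-0 salt library and the mutant cold library thus held similar shares, and the other 4 libraries held less. Within cold and within NaCl the rule sets this direction, so these shares support nothing about the members. The PEG shares weigh abundant members most, such as UBQ11 (305 CPM in lsm1a lsm1b and 622 CPM in Col-0) and AT2G30550 (82.3 and 235 CPM). Of 55 members tested in PEG, 26 had a log2 ratio above 0 and 29 below 0, with a median of -0.02.

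**Figure D1:**
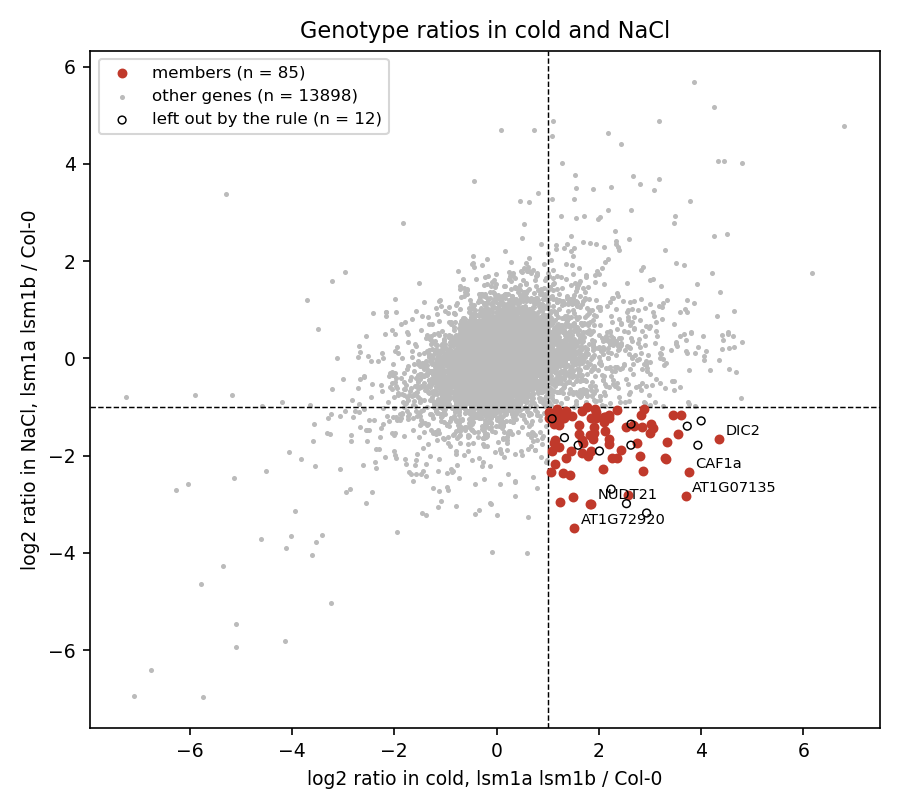
Log2 ratio of lsm1a lsm1b over Col-0 in cold (x axis) and in NaCl (y axis) for genes past the level limit in both stresses, with members in red, the 12 left-out genes as open circles and dashed lines at the ratio limits. The 85 members fill the lower right corner by construction, with DIC2 farthest to the right (4.35) and AT1G72920 lowest (-3.49) at this pseudocount.

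Of the 8 transcription factor genes among the members, 2 encode ethylene response factors of the early-response kind. ERF11, a repressor of ethylene production, had 31.0 CPM in lsm1a lsm1b and 2.09 CPM in Col-0 after cold, 15.3 CPM and 6.38 CPM after PEG, and 13.8 CPM in lsm1a lsm1b against 31.4 CPM in Col-0 after NaCl. Its log2 ratio was 3.60 in cold (95% counting interval 3.31 to 4.53), 1.20 in PEG (0.96 to 1.57) and -1.16 in NaCl (-1.39 to -0.99). The mutant was thus the higher library in cold and PEG, and the lower one in NaCl. ERF5, an activator that acts in ethylene and chitin responses, had 40.8 CPM in lsm1a lsm1b and 4.67 CPM in Col-0 after cold, 6.82 CPM and 4.19 CPM after PEG, and 8.70 CPM in lsm1a lsm1b against 26.3 CPM in Col-0 after NaCl. ERF5 had the same direction as ERF11 within each stress, with a PEG ratio (log2 0.64) short of 2-fold.

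Jasmonate regulators were present too. MYC2, the central transcription factor of jasmonate responses, had 112 CPM in lsm1a lsm1b and 25.8 CPM in Col-0 after cold, 45.6 CPM and 45.5 CPM after PEG, and 78.8 CPM in lsm1a lsm1b against 196 CPM in Col-0 after NaCl. The PEG libraries were level for MYC2 (log2 ratio 0.00, -0.14 to 0.14), between its opposite ratios in cold (2.10) and NaCl (-1.31). ORA47, which activates jasmonate synthesis genes, had 7.78 CPM in lsm1a lsm1b and 1.13 CPM in Col-0 after cold, and 4.68 CPM in lsm1a lsm1b against 20.9 CPM in Col-0 after NaCl, and was not listed in PEG. WRKY22, which acts downstream of flagellin perception, had 7.39 CPM in lsm1a lsm1b and 2.66 CPM in Col-0 after cold, 3.05 CPM and 3.12 CPM after PEG, and 272 counts in lsm1a lsm1b against 583 in Col-0 after NaCl. MYB77, a regulator of auxin-dependent root branching, differed most in NaCl within this group (log2 ratio -2.17, with 1.14 in cold). SCL13, a GRAS-family gene of light signalling, and LBD37, a regulator of nitrogen responses, had cold ratios of 1.29 and 1.19 on the log2 scale and NaCl ratios of -1.21 and -1.10.

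Receptors, kinases and a phosphatase made up 11 members, with cold log2 ratios from 1.16 to 3.32. SOBIR1, a kinase that partners with receptor-like proteins at the cell surface, had 345 CPM in lsm1a lsm1b and 47.9 CPM in Col-0 after cold, 45.4 CPM and 37.3 CPM after PEG, and 51.3 CPM in lsm1a lsm1b against 136 CPM in Col-0 after NaCl. The mutant cold library stood apart from the other 5 for this gene. SOBIR1 shares 478 bases with RAP on the other strand, which was itself higher in cold (log2 ratio 1.41), and no source used here gives the strand setting of the counts. CRK10, a cysteine-rich receptor-like kinase, had 102 CPM in lsm1a lsm1b and 15.7 CPM in Col-0 after cold, 20.2 CPM and 8.77 CPM after PEG, and 34.4 CPM in lsm1a lsm1b against 90.2 CPM in Col-0 after NaCl.

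The wall-associated kinases WAK1 and WAK2, which bind pectin, had their highest level in lsm1a lsm1b after cold. WAK1 had 277 CPM in lsm1a lsm1b and 51.0 CPM in Col-0 after cold but 68 counts in lsm1a lsm1b and 251 in Col-0 (12.4 CPM) after NaCl. WAK2 had 57.5 CPM in lsm1a lsm1b and 7.81 CPM in Col-0 after cold, and 2.34 CPM in lsm1a lsm1b and 10.9 CPM in Col-0 after NaCl. Neither was listed in PEG. MPK3, a mitogen-activated protein kinase of immune and stress signalling, had a log2 ratio of 1.19 in cold and -1.14 in NaCl, near the limits of the rule, and 0.16 in PEG. AT2G30020, the protein phosphatase 2C gene AP2C1, whose product inactivates stress-activated MAP kinases, had 29.7 CPM in lsm1a lsm1b and 4.59 CPM in Col-0 after cold, 22.7 CPM and 36.6 CPM after PEG, and 18.1 CPM in lsm1a lsm1b against 130 CPM in Col-0 after NaCl. Its Col-0 salt library stood far above the other 5, and its NaCl log2 ratio was -2.81. The other members of this group were CRK40, CRK12, the lectin receptor kinase gene LECRKA4.2, AT1G70740 and AT3G46280, the last with 71 counts in lsm1a lsm1b and 3 in Col-0 after cold (3.32, 3.23 to 7.15).

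**Figure D2:**
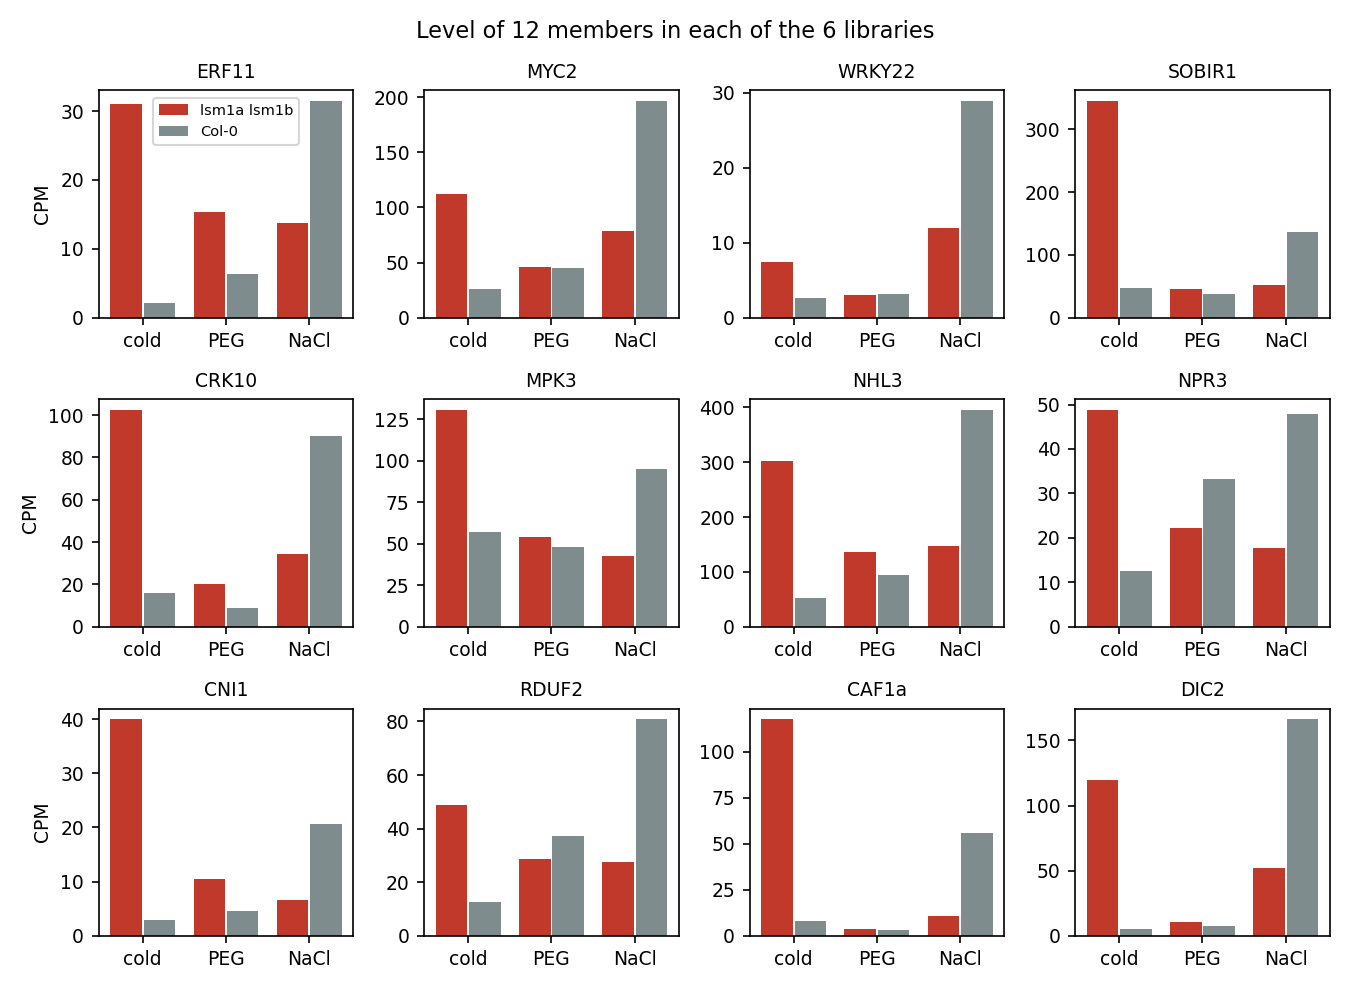
CPM (y axis) of 12 members in the libraries of each stress (x axis), with lsm1a lsm1b in red to the left of Col-0 in grey and 1 library per bar. In each panel the red bar is the higher one in cold and the grey bar the higher one in NaCl, as the rule requires, while the PEG bars are 2-fold or more apart in ERF11 (15.3 and 6.38 CPM), CRK10 (20.2 and 8.77 CPM) and CNI1 (10.5 and 4.63 CPM) only. The genes shown were chosen after their values were seen.

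Resistance and immune signalling proteins gave 12 members. NHL3, a membrane protein related to NDR1, had 302 CPM in lsm1a lsm1b and 51.8 CPM in Col-0 after cold, 137 CPM and 94.8 CPM after PEG, and 148 CPM in lsm1a lsm1b against 395 CPM in Col-0 after NaCl. It overlaps AtPOT1b by 159 bases on the other strand, and AtPOT1b was also higher in cold (log2 ratio 1.36). NDR1 itself, needed for resistance through several intracellular receptors, had 23.6 CPM in lsm1a lsm1b and 3.22 CPM in Col-0 after cold, 4.16 CPM and 2.34 CPM after PEG, and 5.39 CPM in lsm1a lsm1b against 14.9 CPM in Col-0 after NaCl. Another relative, NHL2, had ratios nearer the limits (log2 1.21 in cold and -1.16 in NaCl).

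ACD6, an ankyrin-repeat membrane protein that amplifies salicylic acid signalling, had 4209 counts in lsm1a lsm1b and 1429 in Col-0 after cold, and 6 counts in lsm1a lsm1b against 113 in Col-0 after NaCl. It was thus among the most abundant members in cold (409 and 115 CPM) and near the level limit in salt (0.27 and 5.60 CPM), and it was not listed in PEG. NPR3, a salicylic acid receptor that represses defence genes, had 48.7 CPM in lsm1a lsm1b and 12.6 CPM in Col-0 after cold, 22.2 CPM and 33.3 CPM after PEG, and 17.7 CPM in lsm1a lsm1b against 47.8 CPM in Col-0 after NaCl. MLO12, of the family that conditions powdery mildew susceptibility, had a log2 ratio of 2.88 in cold and -1.05 in NaCl. Of 4 genes with a Toll-Interleukin-Resistance domain, AT5G41750 had the highest cold ratio (376 and 36 counts, 3.45, 3.16 to 4.19) and AT1G72920 the lowest NaCl ratio of the members with the pseudocount of 0.5 (17 counts in lsm1a lsm1b and 274 in Col-0, -3.49). With a pseudocount of 2, NUDT21 was the lowest. AT1G72940 and AT5G58120 were the other pair. The ankyrin genes AT4G11000 (3.33 in cold, -1.72 in NaCl) and AT5G54710 (2.20 and -1.23) complete the group.

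Ubiquitin and its ligases gave 8 members. The ligases of the RING type ATL2, ATL6 and CNI1 (also called ATL31, and known for carbon and nitrogen balance), RDUF1 and RDUF2 (ABA-dependent drought responses), and the U-box ligases CMPG1 (an elicitor-response gene) and PUB19 (a negative regulator of ABA responses) were all present. CNI1 had 39.9 CPM in lsm1a lsm1b and 2.98 CPM in Col-0 after cold, 10.5 CPM and 4.63 CPM after PEG, and 6.67 CPM in lsm1a lsm1b against 20.6 CPM in Col-0 after NaCl. RDUF1 and RDUF2, a related pair, were alike in both stresses, with cold log2 ratios of 1.83 and 1.91 and NaCl log2 ratios of -1.57 and -1.53. PUB19 had 238 CPM in lsm1a lsm1b and 54.7 CPM in Col-0 after cold, 122 CPM and 201 CPM after PEG, and 67.5 CPM in lsm1a lsm1b against 157 CPM in Col-0 after NaCl. ATL2 had 36.3 CPM in lsm1a lsm1b and 7.49 CPM in Col-0 after cold, and 13.3 CPM in lsm1a lsm1b against 43.0 CPM in Col-0 after NaCl. CMPG1 had 14.1 CPM in lsm1a lsm1b and 2.33 CPM in Col-0 after cold, and its NaCl log2 ratio (-1.05) lay near the limit, as did both ratios of ATL6 (1.03 and -1.11). UBQ11 encodes polyubiquitin itself and was the most abundant member, with 893 CPM in lsm1a lsm1b and 322 CPM in Col-0 after cold, 305 CPM and 622 CPM after PEG, and 248 CPM in lsm1a lsm1b against 566 CPM in Col-0 after NaCl. Polyubiquitin genes are near-identical copies, so its reads may have been split among them and its values are uncertain.

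Calcium and calmodulin binding proteins gave 7 members. AT4G27280, an EF-hand protein gene, had 67.7 CPM in lsm1a lsm1b and 6.44 CPM in Col-0 after cold, 11.0 CPM and 8.43 CPM after PEG, and 14.9 CPM in lsm1a lsm1b against 63.2 CPM in Col-0 after NaCl. AT4G34150, of the calcium-dependent lipid-binding family, had 221 CPM in lsm1a lsm1b and 68.2 CPM in Col-0 after cold, 64.4 CPM and 52.2 CPM after PEG, and 84.3 CPM in lsm1a lsm1b against 282 CPM in Col-0 after NaCl. In both genes the PEG libraries were less than 2-fold apart. AT2G41090, another EF-hand gene, was highest in cold, with 253 CPM in lsm1a lsm1b and 120 CPM in Col-0 after cold, 10.6 CPM and 55.4 CPM after NaCl, and at most 1.71 CPM after PEG. The remaining ones, AT2G26190, CAMBP25, AT3G16510 and AT3G25600, had cold log2 ratios from 1.13 to 1.77.

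A group named RNA and nucleotide turnover held 4 genes. Its nudix hydrolase and nuclease genes were placed there by annotated product name, and a part of theirs in RNA decay is not shown here. CAF1a encodes a deadenylase, an enzyme that shortens poly(A) tails and so acts one step before decapping. It had 118 CPM in lsm1a lsm1b and 8.21 CPM in Col-0 after cold, 3.55 CPM and 3.07 CPM after PEG, and 10.6 CPM in lsm1a lsm1b against 55.8 CPM in Col-0 after NaCl. The log2 ratio was 3.76 in cold (3.55 to 4.15) and -2.34 in NaCl (-2.60 to -2.19). Its relative CAF1-11 had ratios of 2.72 in cold and -0.59 in NaCl and is not a member. The nudix hydrolase genes NUDT21 and NUDT4 were far lower in NaCl, with 239 counts in lsm1a lsm1b against 1759 in Col-0 for NUDT21 (-2.99, -3.25 to -2.85) and 131 against 900 for NUDT4 (-2.84, -3.22 to -2.68). AT4G29780, annotated as a nuclease, had log2 ratios of 2.26 and -2.05.

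Transport, membrane and wall proteins gave 9 members and other enzymes 10. DIC2, a mitochondrial dicarboxylate carrier, had the highest cold ratio of all members. It had 119 CPM in lsm1a lsm1b and 5.39 CPM in Col-0 after cold, 10.6 CPM and 7.26 CPM after PEG, and 52.1 CPM in lsm1a lsm1b against 166 CPM in Col-0 after NaCl (log2 ratios 4.35, 4.11 to 4.85, in cold and -1.67, -1.77 to -1.58, in NaCl). AT5G19240, a GPI-anchored glycoprotein gene, had 357 CPM in lsm1a lsm1b and 42.5 CPM in Col-0 after cold, and 23.2 CPM in lsm1a lsm1b against 63.7 CPM in Col-0 after NaCl. TBL26, of a family that acetylates wall polymers, had log2 ratios of 1.31 in cold and -2.35 in NaCl. TET8, a tetraspanin, PUP18, a purine permease family gene, NAXT1, a nitrate efflux transporter, COBL8 and ACT11 had cold ratios from 1.05 to 2.21. Among the enzymes, the siroheme synthesis gene UPM1, the phosphatidate phosphatase gene PAP1, the epithiospecifier gene ESP and AT2G43590, a chitinase-family gene, had cold ratios from 1.08 to 1.95.

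The 16 members of other or unknown function included the glycine-rich protein genes AT1G07135 and AT3G04640. AT1G07135 was extreme in both stresses, with 45.9 CPM in lsm1a lsm1b and 3.06 CPM in Col-0 after cold, 3.33 CPM and 2.68 CPM after PEG, and 9.72 CPM in lsm1a lsm1b against 72.1 CPM in Col-0 after NaCl (log2 ratios 3.70 and -2.83). AT3G04640 had a NaCl log2 ratio of -2.96 and a cold ratio of 1.24. AT3G56880, a VQ-motif gene, had the second highest level in any library, 468 CPM in Col-0 after NaCl, against 124 CPM in lsm1a lsm1b. The DUF793 relatives AT1G18740 and AT1G74450 had log2 ratios of 2.07 and 1.44 in cold and of -2.28 and -2.40 in NaCl. Per kilobase of transcript (RPKM, from the deposited lengths), the highest members in the mutant cold library were UBQ11 (852), AT5G19240 (470) and NHL3 (310), and in the Col-0 salt library UBQ11 (540), AT3G56880 (446) and NHL3 (404).

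PEG was not used to choose the members, so its libraries give a separate measure of them. Of the 85 members, 11 were not listed in PEG and 19 were under 5 CPM in both PEG libraries, which leaves 55. In these 55, 5 (9.09%) were at least 2-fold higher in lsm1a lsm1b and 3 (5.45%) at least 2-fold lower, while 47 were within 2-fold. Over all 15092 genes tested in PEG the background was 4.13% higher and 2.68% lower. With TMM scaling, another way to set library sizes, 54 members were tested in PEG and the members' counts were again 5 and 3. Over all genes the PEG calls were then 491 higher and 505 lower, against 624 and 405 with column sums. The share of higher genes among all those called was 49.3%, against 60.6% with column sums. The background percentages above hold for column sums only. The median log2 ratio of the 55 members was -0.02 (quartiles -0.29 to 0.29), beside 0.10 over all genes tested.

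The 2 kinds of gene that meet only 1 limit of the rule stood on opposite sides in PEG. Genes higher in cold but not lower in NaCl had a PEG median of 0.41 (n = 815), with 21.1% at least 2-fold higher and 2.21% lower. Genes lower in NaCl but not higher in cold had a PEG median of -0.73 (n = 449), with 0.445% higher and 31.6% lower. The members lay between them. These sets share the PEG libraries, and no test of the difference between sets was made.

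**Figure D3:**
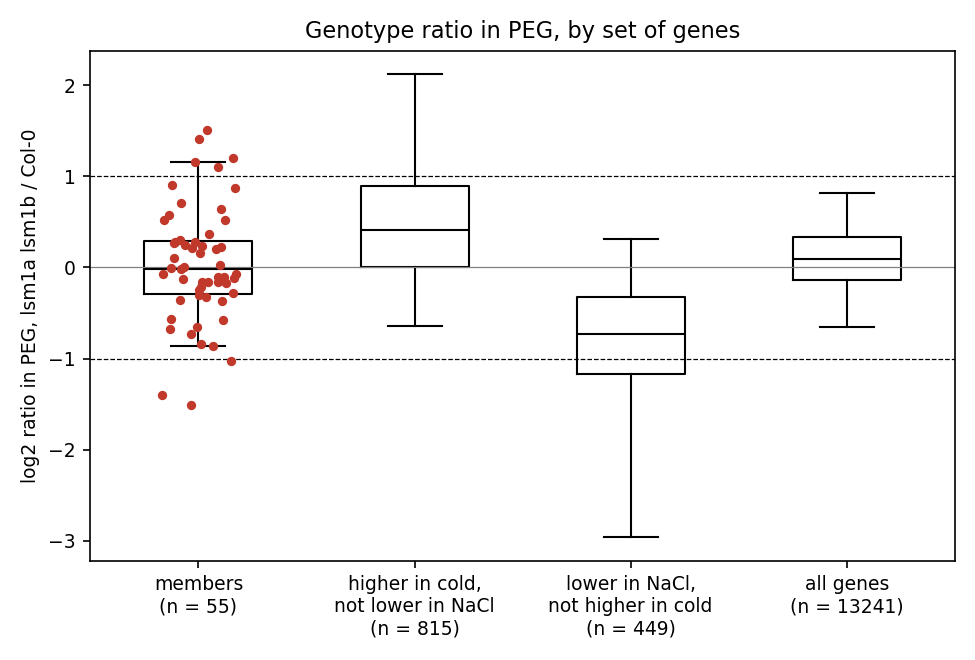
Log2 ratio of lsm1a lsm1b over Col-0 in PEG (y axis) for the members and 3 comparison sets (x axis), each gene reaching 5 CPM in a PEG library, and "all genes" being those also past that level in cold and NaCl. Boxes span the quartiles with the median as a line, whiskers run from the 5th to the 95th percentile, and red points are single members, which centre near 0 (median -0.02).

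The 5 members that were at least 2-fold higher in PEG were AT3G60420, AT5G24210, ERF11, CRK10 and CNI1. AT3G60420, a phosphoglycerate mutase family gene, had 14.1 CPM in lsm1a lsm1b and 4.63 CPM in Col-0 (log2 ratio 1.51, 1.26 to 1.96), and AT5G24210, a lipase-like hydrolase gene, had 7.93 CPM and 2.68 CPM (1.41, 1.11 to 2.04). ERF11 (1.20, 0.96 to 1.57), CRK10 (1.16, 0.94 to 1.47) and CNI1 (1.10, 0.82 to 1.55) had intervals that reach below 2-fold. In these genes the PEG ratio had the sign of the cold ratio, as the rule fixes for any member higher in PEG. The 3 lower ones had the sign of the NaCl ratio, for the same reason. They were AT2G30550, the DAD1-like lipase gene DALL3, with 82.3 CPM in lsm1a lsm1b and 235 CPM in Col-0 (-1.51, -1.60 to -1.43), AT1G72940 with 2.49 CPM and 7.40 CPM (-1.40, -2.08 to -1.08), and UBQ11 (-1.02, -1.07 to -0.98), whose interval also reaches inside 2-fold. Across the 55 members, which share libraries, the PEG log2 ratio had r = 0.34 and rho = 0.25 with the cold ratio, and r = 0.21 and rho = 0.21 with the NaCl ratio. The rule cut the range of the cold and NaCl ratios, and genes are not replicates of a stress. These coefficients are descriptions and support nothing about how PEG relates to cold or salt.

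PEG and NaCl plants shared medium and duration, so their levels can be set side by side, with the caution that the NaCl libraries chose the members. The PEG and NaCl libraries also differed in make-up. The 6 leaf markers summed to 3207 CPM in lsm1a lsm1b and 3003 CPM in Col-0 after PEG. After NaCl these sums were 13548 CPM and 12016 CPM. The part of this in the levels of the members was not tested. In 67 of the 74 members listed in both stresses the Col-0 salt library was the highest of the 4 plate libraries, and in the other 7 it was the Col-0 PEG library. In Col-0 the level after NaCl was at least 2-fold that after PEG in 63 of 74 members (85.1%), with a median log2 ratio of 2.18. In lsm1a lsm1b this held for 19 of 74 (25.7%), with a median of 0.37. Over all genes past the level limit in cold and NaCl, the shares were 8.38% in lsm1a lsm1b and 14.1% in Col-0. For genes lower in NaCl but not higher in cold, which carry the same selection in NaCl, the medians were 0.12 in lsm1a lsm1b and 0.86 in Col-0. The rule used the Col-0 NaCl levels, so these values are a description and support nothing about the members. The salt library labelled lsm1a lsm1b was the lowest of the 4 for 20 of the 74 members, and a PEG library was the lowest for the rest. The 7 with their highest plate level in Col-0 after PEG were AT2G30550 (235 CPM there against 102 CPM in Col-0 after NaCl), UBQ11, PUB19, ATL6, AT2G43590, AT4G17250 and AT5G45630.

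The members fall within lists of known response genes to different degrees, and these lists do not hold the 14 left-out genes. The lists were drawn up with earlier results of these data known. The counts are to be read beside 8.91% of all tested genes higher in cold and 4.28% lower in NaCl. Of 12 ubiquitin ligase genes, 9 of 10 tested in cold were at least 2-fold higher and 6 of 12 tested in NaCl at least 2-fold lower, with 6 genes in both counts. Of 22 receptor and kinase genes of pattern immunity, 12 of 20 were higher in cold and 4 of 18 lower in NaCl, and those 4 are the members WAK1, WAK2, SOBIR1 and MPK3. Others of that list, such as FRK1 (log2 ratio 3.12 in cold and -0.42 in NaCl) and BKK1 (2.32 and -0.19), were higher in cold without being 2-fold lower in salt.

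Of 19 WRKY genes, 14 of 15 tested were higher in cold and only WRKY22, of 17 tested, was lower in NaCl, where 5 were higher. WRKY33, a regulator of camalexin synthesis, had ratios of 3.74 in cold and -0.89 in NaCl and so fell just outside. Of 21 ERF and DREB genes, 8 of 13 were higher in cold, 7 of 17 lower and 3 higher in NaCl, and 3 were members (ERF5, ERF11 and ORA47). The cold regulators CBF1 (-3.20) and CBF2 (-2.37) were among those lower in NaCl. In cold CBF2 was not 2-fold higher (0.23). CBF1 (0.61) was under the level limit in cold, with 23 counts in lsm1a lsm1b and 16 in Col-0. Of 10 stress zinc finger genes 7 of 8 were higher in cold and 1 of 7, ZAT11, lower in NaCl, and none was a member. AZF1 (3.48 in cold, -1.05 in NaCl) and ZAT11 (1.82 and -1.08) passed both ratio limits but not the level limit. In the higher library AZF1 reached 4.11 CPM in NaCl, and ZAT11 1.56 CPM in cold. Of 17 calmodulin-like and calcium genes 8 of 14 were higher in cold and 1 of 14, CML38, lower in NaCl, again with no member. CML39 (1.02 and -1.13) passed both ratio limits but was under the level limit in cold and in NaCl.

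In the remaining lists, 13 of 16 membrane, secretion and wall defence genes were higher in cold and 2 of 15 lower in NaCl (the members NHL3 and MLO12). Of 9 salicylic acid and lipase genes 7 of 9 were higher in cold and 1 of 8, NPR3, lower in NaCl. Jasmonate genes had 5 of 9 higher in cold and 2 of 12 lower in NaCl (MYC2 and JAZ9), MYB genes 3 of 6 and 3 of 8, and both CAF1 deadenylase genes were higher in cold with CAF1a lower in NaCl. In PEG, beside 4.13% of all tested genes higher and 2.68% lower, 5 of 15 tested WRKY genes, 4 of 12 calcium genes, 2 of 8 ERF and DREB genes, 1 of 9 ubiquitin ligase genes and 1 of 11 membrane, secretion and wall genes were at least 2-fold higher. At least 2-fold lower were 1 of the 12 calcium genes and 1 of 9 jasmonate genes (JAZ9), and the other response lists, clock genes aside, had no gene 2-fold apart, with no CAF1 gene past the level limit. Clock genes, which follow the time of sampling, were 1 higher and 2 lower of 11 in cold, 1 and 1 of 9 in PEG, and 1 and 0 of 9 in NaCl, and the part of sampling time in the ratios of the members was not tested.

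Gene structure was not part of the rule. Of the 85 members, 36 (42.4%) had a single exon in the RefSeq model with the most exons, as ERF11, ERF5, MYC2, SOBIR1, NHL3, CAF1a and DIC2 do. The share was 21.5% for genes higher in cold but not lower in NaCl. It was 26.4% for genes lower in NaCl but not higher in cold, and 10.0% over all genes past the level limit in cold and NaCl. The median number of exons was 2 in members and 6 over all these genes. Transcripts of members were slightly shorter (median 1390 bases, against 1608 over all). MLO12 with 15 exons was the far end of the members. The median log2 ratios of single-exon members were 2.11 in cold and -1.56 in NaCl, and those of the 49 others 1.67 and -1.38.

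Motifs in the 300 bases upstream differed less. The W box core was found in 57 of 85 members (67.1%) and in 62.8% of genes higher in cold but not lower in NaCl. The share was 50.1% in genes lower in NaCl but not higher in cold, and 49.5% in all genes. The rapid stress response element was found in 8 members (9.41%), against 5.16%, 4.49% and 3.28% in those sets. The 8 were CMPG1, DIC2, NDR1, UBQ11, AT3G45730, AT4G27657, AT4G34150 and AT5G58120. The GCC box (GCCGCC, bound by ERF factors) was found in 2.35% of members and 2.42% of all genes, the G box (CACGTG, bound by bHLH and bZIP factors) in 9.41% and 8.27%, the ABRE core (ACGTGG, bound by ABF factors) in 9.41% and 10.2%, and the DRE core (CCGAC, bound by CBF factors) in 14.1% and 15.5%. The ABRE core can overlap the G box. In 1000 bases, the shares were 92.9% and 87.6% for the W box core and 15.3% and 8.95% for the rapid stress response element. They were 29.4% and 39.6% for the DRE core, 18.8% and 22.0% for the ABRE core, 15.3% and 16.5% for the G box, and 7.06% and 8.82% for the GCC box. Genes higher in cold but not lower in NaCl had 92.6% (W box core), 12.6% (rapid stress response element) and 38.8% (DRE core). Genes lower in NaCl but not higher in cold had 86.7%, 10.0% and 39.4% for the same motifs. In 14 of the 85 windows of 300 bases another annotated gene overlapped the window, and with small counts such as 8 these shares are descriptions.

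**Figure D4:**
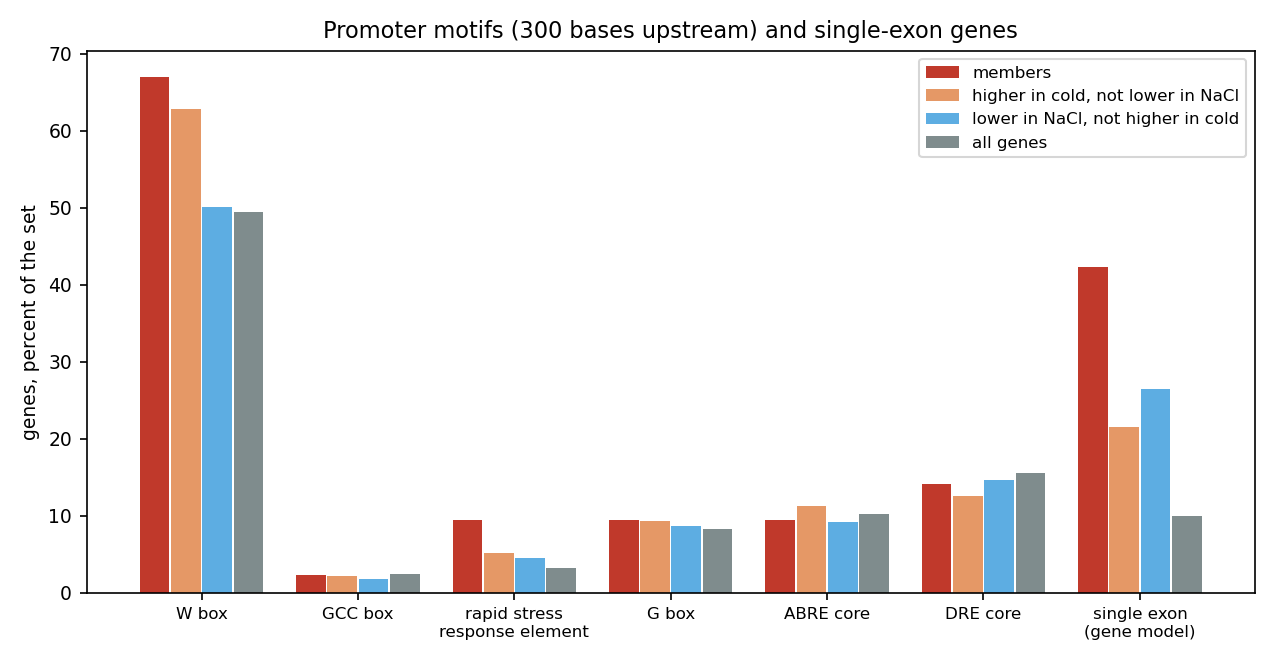
Share of genes in percent (y axis) with each motif within 300 bases upstream, on either strand, and share with a single exon (x axis), for the members and 3 comparison sets, "all genes" being those past 5 CPM in cold and NaCl. The single-exon share separates the members (42.4%) from all genes (10.0%) most, and the W box core (67.1% and 49.5%) and the rapid stress response element (9.41% and 3.28%) less.

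The members were spread over the 5 chromosomes, with 24, 11, 19, 17 and 14 on chromosomes 1 to 5 (from 12.9% on chromosome 2 to 28.2% on chromosome 1), beside 14.9% to 26.1% of all genes past the level limit on the same chromosomes. Chromosome 5 held 16.5% of members and 23.5% of all these genes. There were 6 pairs of members less than 10 kb apart (files' coordinates, TAIR10): WAK1 (chromosome 1, 7439266 to 7442113) with WAK2 (7444931 to 7447549), AT1G72920 with AT1G72940 on chromosome 1, MPK3 (chromosome 3, 16756770 to 16758698) with NAXT1 (16759253 to 16761266), SCL13 with AT4G17250, CRK10 (chromosome 4, 12138137 to 12140921) with CRK12 (12145380 to 12147934), and AT4G27652 with AT4G27657. The pairs WAK1 with WAK2, CRK10 with CRK12 and AT1G72920 with AT1G72940 are relatives in tandem, between which reads may have been split. MPK3 and NAXT1 are unrelated in sequence family and lie 555 bases apart. Besides SOBIR1 and NHL3, 4 members overlap another listed gene on the other strand: WAK2, AT2G38790, COBL8 and AT5G58120, by 19 to 69 bases.

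The limits of the rule cut through a continuous range of values. Just inside the cold limit of 2 were AT1G52200 (ratio 2.04), ATL6 (2.04) and ACT11 (2.06), and just outside were AT2G16660 (1.98), AT5G41740 (1.96) and AT3G15530 (1.94). Just inside the NaCl limit of 0.5 were AT3G25600 (0.499), COBL8 (0.487) and AT1G76600 (0.485), and just outside were AT2G40270 (0.502), the phosphatase gene HAI1 (0.506) and CRK14 (0.508). NAXT1 (5.15 CPM), AT4G11000 (5.20 CPM) and LECRKA4.2 (5.30 CPM) were just inside the level limit, and AT1G51820 (4.51 CPM), GPAT2 and GPT2 (both 4.47 CPM) just outside.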

How the data were processed

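RNA from 6 samples labelled as leaves, 1 library per genotype and stress, was analysed, with groups taken from the sample titles. The deposited values are whole-number read counts per gene. Per the submitters' processing notes TAIR10, TopHat2 and DESeq2 were used, while the read counter and strand setting are not given there. Every listed gene had at least 1 RPKM in 1 library of its stress, and a gene not listed in a stress was given no value there. In 270 NaCl rows and 1 PEG row transcript name and locus code disagreed, and genes were identified by the code.

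Counts were scaled to CPM by column sums (10289392 to 22639128). Ratios used a pseudocount of 0.5 CPM, and a gene was tested in a stress with at least 5 CPM in its higher library. Member genes and lists were chosen with earlier results of these data known. Named genes were list members, the 10 most extreme members in each stress, the 10 highest in CPM, those 2-fold apart in PEG, neighbours and those nearest the limits. Further genes were picked with their values in view. Role groups were also made after seeing the members. Symbols, exons and upstream sequence came from RefSeq (TAIR10.1). All 85 members had an entry, and all 20055 shared nuclear loci overlapped on the same chromosome and strand. Alternatives were TMM (edgeR 4.0.16), DESeq2 1.42.0 size factors, other pseudocounts, level and fold limits, and sums without organelle genes. Sums without seed markers, a strict interval rule, a longer window and other gene models were added after seeing the data. Python 3.11.15, pandas 2.3.3 and scipy 1.17.1 were used, and the functions were tested on simulated data. The genes left out by the rule are not reported here.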

Additional observations from a re-analysis of the deposited data

Results flagged for a closer look

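In 8 members the PEG ratio was at least 2-fold. Of 55 tested members, 9.09% were higher and 5.45% lower, beside 4.13% and 2.68% of all 15092 genes tested. The rule gives every member cold and NaCl ratios of opposite direction. Any PEG ratio therefore opposes 1 of them, and that opposition is no result. The log2 ratio of lsm1a lsm1b over Col-0 in PEG was 1.51 for AT3G60420, 1.41 for AT5G24210, 1.20 for ERF11, 1.16 for CRK10 and 1.10 for CNI1, the opposite direction from NaCl. It was -1.51 for AT2G30550, -1.40 for AT1G72940 and -1.02 for UBQ11, the opposite direction from cold. With 1 library per genotype and stress, the difference between stresses was not tested.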

How the results depend on the processing

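The number of members was 85 and stayed within 1.5 times that under TMM (77), DESeq2 size factors (79), sums without organelle (84) or seed marker genes (85), pseudocounts of 0.1 (89) and 2 (72), a level limit of 1 CPM (107) and no level limit (110). It was 46 at a level limit of 20 CPM, 273 at a fold limit of 1.5, 24 at a fold limit of 3, and 52 where the counting intervals had to lie beyond 2-fold in both stresses (chosen after seeing the data). All 77 genes under TMM were members, and the 8 lost were AT1G52200, ESP, AT2G41090, ATL6, ACT11, NAXT1, AT4G27652 and AT4G27657. Members higher in PEG numbered 5, against 1 at 20 CPM, 9 at a fold limit of 1.5 and 0 at 3. Members lower in PEG numbered 3, against 8 at 1.5 and 0 at 3. These alternatives are stricter or looser by construction. The shares over all genes at these other limits are not given here, so the counts alone show nothing particular to the members. The PEG median of the members was -0.02 with column sums, -0.14 with TMM and -0.18 with DESeq2 size factors, while that of all genes was 0.10 with column sums and close to 0 with the other two, so the difference was -0.11, -0.14 and -0.17. No cold, NaCl or called PEG ratio of a member changed sign under another scaling or pseudocount, but 43 of 178 such results lay outside their counting interval with a pseudocount of 2, 6 with TMM and 5 with DESeq2 size factors. The cold log2 ratio of AT3G46280 was 3.32, and 1.99 with a pseudocount of 2. The NaCl log2 ratio of ACD6 was -2.99, and -1.75 with a pseudocount of 2. The counting intervals carry no pseudocount, and that of ACD6 in NaCl (-5.88 to -3.23) does not hold the -2.99 either. No paired analysis was possible because each of the groups compared within a stress has 1 library, so they share 1 replicate number only. The results come from no test. An average genotype effect blocked on stress is another quantity and was not fitted. No library could be left out, since the rule needs each cold and NaCl library. Depth limits members of few counts, such as AT3G46280 with 3 counts in Col-0 after cold.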
